A study of Homo sapiens with 18 samples.

Results

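The 10 genes GATA1, GATA2, KLF1, TAL1, NFE2, GFI1B, HEMGN, LMO2, ZFPM1 and LYL1 encode transcription regulators of the red cell lineage, and they are described here out of 26249 genes measured. They were selected on measured values, namely their high level in the libraries labelled XG1 beside those labelled AMO1, together with the stronger fall of KLF1 and HEMGN under treatment in the XG1 libraries. The difference between the lines, and the treatment values of KLF1 and HEMGN, are therefore given as descriptions. Test outcomes of KLF1 and HEMGN enter the choice of genes shown and some counts and figure marks over all 10. A test outcome of HEMGN is also given for the comparison of the doses and for the response difference under alternative settings. None of these is support.

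XG1 and AMO1 are names of human multiple myeloma cell lines, and the series title calls its lines resistant. This cancer arises from plasma cells, which secrete antibodies. Each line had 3 groups of 3 libraries, all taken after 6 h: the solvent DMSO, 100 nM YKL-5-124 and 1000 nM YKL-5-124. YKL-5-124 is a covalent inhibitor of CDK7, a kinase that acts on RNA polymerase II and on cell cycle kinases. RNA was read from the 3′ ends of polyadenylated transcripts, and levels are given in FPKM, a unit that scales fragments by library size and by the length of the transcript. The labels do not say whether the 3 libraries of a group came from separate cultures. The p-values therefore measure only how far libraries spread, which can be technical variation. For each gene this spread was pooled over all libraries of both lines. Standard errors (SE), intervals and p-values of an XG1 comparison thus do not rest on the spread of the XG1 libraries alone. AMO1 libraries with very low values of a gene take part in them. Read depth is unknown.

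Red cell precursors are built by a small network of DNA-binding proteins. GATA2 is active in stem and progenitor cells and on entry into the red cell, megakaryocyte and mast cell lineages, and GATA1 then takes its place at many sites, an exchange known as the GATA switch. ZFPM1, also called FOG1, is a GATA1 cofactor. TAL1, its close relative LYL1 and the bridging protein LMO2 work in one complex with LDB1 and E proteins, often at GATA sites. KLF1 binds CACCC boxes and drives beta-globin, HEMGN is a nuclear protein of erythroid cells, NFE2 pairs with small MAF proteins at globin control regions, and GFI1B is a repressor.

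A 300-base promoter window, from 250 bases before to 50 bases after the start site, was found in RefSeq's tables (build GRCh38.p14) for 8 of the 10 genes, 12 windows in all. The windows printed here belong to the 5 genes called at 1000 nM in the XG1 libraries, so that their start regions can be set beside their values. They run 5′ to 3′ on the gene's strand, and capitals mark AGATAA or TGATAA, the hexamers that GATA factors prefer, searched on both strands, so that TTATCT and TTATCA are the same matches read from the other strand. The windows are KLF1 at chr19:12887152-12887451 (minus strand), HEMGN at chr9:97938123-97938422 (minus strand), LYL1 at chr19:13102809-13103108 (minus strand), GATA1 at chrX:48786340-48786639 (plus strand) and GATA2 at chr3:128493152-128493451 (minus strand).
KLF1: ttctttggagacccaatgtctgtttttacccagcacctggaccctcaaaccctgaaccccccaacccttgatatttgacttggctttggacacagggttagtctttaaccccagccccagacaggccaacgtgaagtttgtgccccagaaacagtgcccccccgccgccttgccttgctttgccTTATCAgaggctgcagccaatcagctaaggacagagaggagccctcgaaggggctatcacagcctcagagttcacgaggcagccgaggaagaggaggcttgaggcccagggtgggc
HEMGN: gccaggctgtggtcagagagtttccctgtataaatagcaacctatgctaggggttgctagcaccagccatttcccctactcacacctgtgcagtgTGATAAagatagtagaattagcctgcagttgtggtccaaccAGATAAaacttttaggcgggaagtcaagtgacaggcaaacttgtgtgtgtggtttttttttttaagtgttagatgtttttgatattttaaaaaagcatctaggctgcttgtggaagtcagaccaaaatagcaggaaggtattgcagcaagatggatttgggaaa
LYL1: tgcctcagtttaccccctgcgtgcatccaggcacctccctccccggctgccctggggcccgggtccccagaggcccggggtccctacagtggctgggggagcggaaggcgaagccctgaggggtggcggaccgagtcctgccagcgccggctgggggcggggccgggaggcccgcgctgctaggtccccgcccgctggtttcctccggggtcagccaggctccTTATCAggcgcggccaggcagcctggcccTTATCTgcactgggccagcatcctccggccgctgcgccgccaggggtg
GATA1: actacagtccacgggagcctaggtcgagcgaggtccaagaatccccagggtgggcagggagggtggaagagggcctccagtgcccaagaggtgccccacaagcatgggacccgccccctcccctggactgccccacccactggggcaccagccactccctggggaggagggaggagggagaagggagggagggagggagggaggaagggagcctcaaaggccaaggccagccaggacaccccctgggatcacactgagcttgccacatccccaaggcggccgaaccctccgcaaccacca
GATA2: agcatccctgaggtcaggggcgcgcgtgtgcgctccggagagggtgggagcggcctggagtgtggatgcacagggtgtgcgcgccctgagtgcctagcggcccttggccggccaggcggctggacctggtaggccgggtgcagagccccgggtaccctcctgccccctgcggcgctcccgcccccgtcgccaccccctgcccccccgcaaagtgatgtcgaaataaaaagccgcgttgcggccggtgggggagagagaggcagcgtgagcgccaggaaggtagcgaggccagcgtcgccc

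The KLF1 window held 1 hexamer, with its first base at position -66 from the start site. The HEMGN window held 2, at -155 and -114, and the second HEMGN window, upstream at chr9:97944803-97945102, held 1 at -179. The LYL1 window held 2, at -27 and 3. TAL1 had a match at -35 and GFI1B at -116, so 5 of the 8 genes with a window and 6 of the 12 windows held a hexamer, beside 16.3% of all 35116 promoter windows of this length. Neither of the GATA2 windows nor the GATA1 window held one. The CACCC box, with the letters CACCC on either strand, was in 6 of the 12 windows (5 of the 8 genes) and in 59.9% of all windows, and the E-box CAGNTG was in 5 of the 12 (4 of the 8 genes) and in 49.9% of all. Matches of different motifs can share letters, which none did in the windows of these genes. A match is a description of the letters only.

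Markers of the labelled cell type were first compared between the lines. The summed level of 10 plasma cell genes was 44.4 to 75.9 FPKM over the XG1 libraries and 4808 to 7249 over the AMO1 libraries. SDC1, the plasma cell surface proteoglycan CD138, ran from 4.36 to 15.1 FPKM in the XG1 libraries and from 2916 to 4658 in the AMO1 libraries. The XG1 libraries thus go against their myeloma label, and they are called XG1 libraries as a label only. Of 53 target genes of the erythroid network (globins, heme enzymes, membrane and blood group proteins), 26 were at 10 FPKM or more in all 9 XG1 libraries and 13 in all 9 AMO1 libraries.

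All 9 XG1 libraries carried the erythroid factors at levels far above the AMO1 libraries, ZFPM1 excepted. For 9 of the 10 genes the lowest XG1 library lay above the highest AMO1 library. The genes were selected on this difference, and the share of all genes that separate the lines in this way was not taken. The count therefore does not show how unusual these genes are. In DMSO the XG1 means ± SD (n = 3) were 69.5 ± 5.51 FPKM for LYL1, 60.6 ± 5.94 for NFE2, 56.8 ± 2.43 for KLF1, 33.6 ± 4.35 for GATA2 and 28.5 ± 1.93 for GATA1. They were 28.1 ± 6.03 FPKM for LMO2, 25.7 ± 3.43 for GFI1B, 13.9 ± 3.49 for HEMGN, 2.95 ± 0.383 for TAL1 and 0.678 ± 0.111 for ZFPM1. In that order the ranges of neighbours overlapped from LYL1 to KLF1 and from GATA2 to GFI1B. They did not overlap between KLF1 and GATA2, between GFI1B and HEMGN, between HEMGN and TAL1, or between TAL1 and ZFPM1. Because FPKM is divided by length and 3′ end reads do not grow with length, this order is one of FPKM values and not of molecules.

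In the AMO1 libraries 64 of the 90 values of the 10 genes were under 0.5 FPKM and 9 were at 1 FPKM or more. The commonest low value of a library, which serves as its floor, was 0.075 to 0.133 FPKM. GATA1 ran from 0.0755 to 0.206 FPKM over the 9 AMO1 libraries (median 0.118), and GATA2 from 0.0764 to 0.378 (median 0.136), so both master regulators were at or close to the floor. LYL1 was the highest, with 0.574 to 1.37 FPKM (median 1.15). ZFPM1, the GATA1 cofactor, was low in both lines, with 0.378 to 1.15 FPKM over the XG1 libraries and 0.176 to 1.70 over the AMO1 libraries. No value of any gene was 0.

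**Figure D1:**
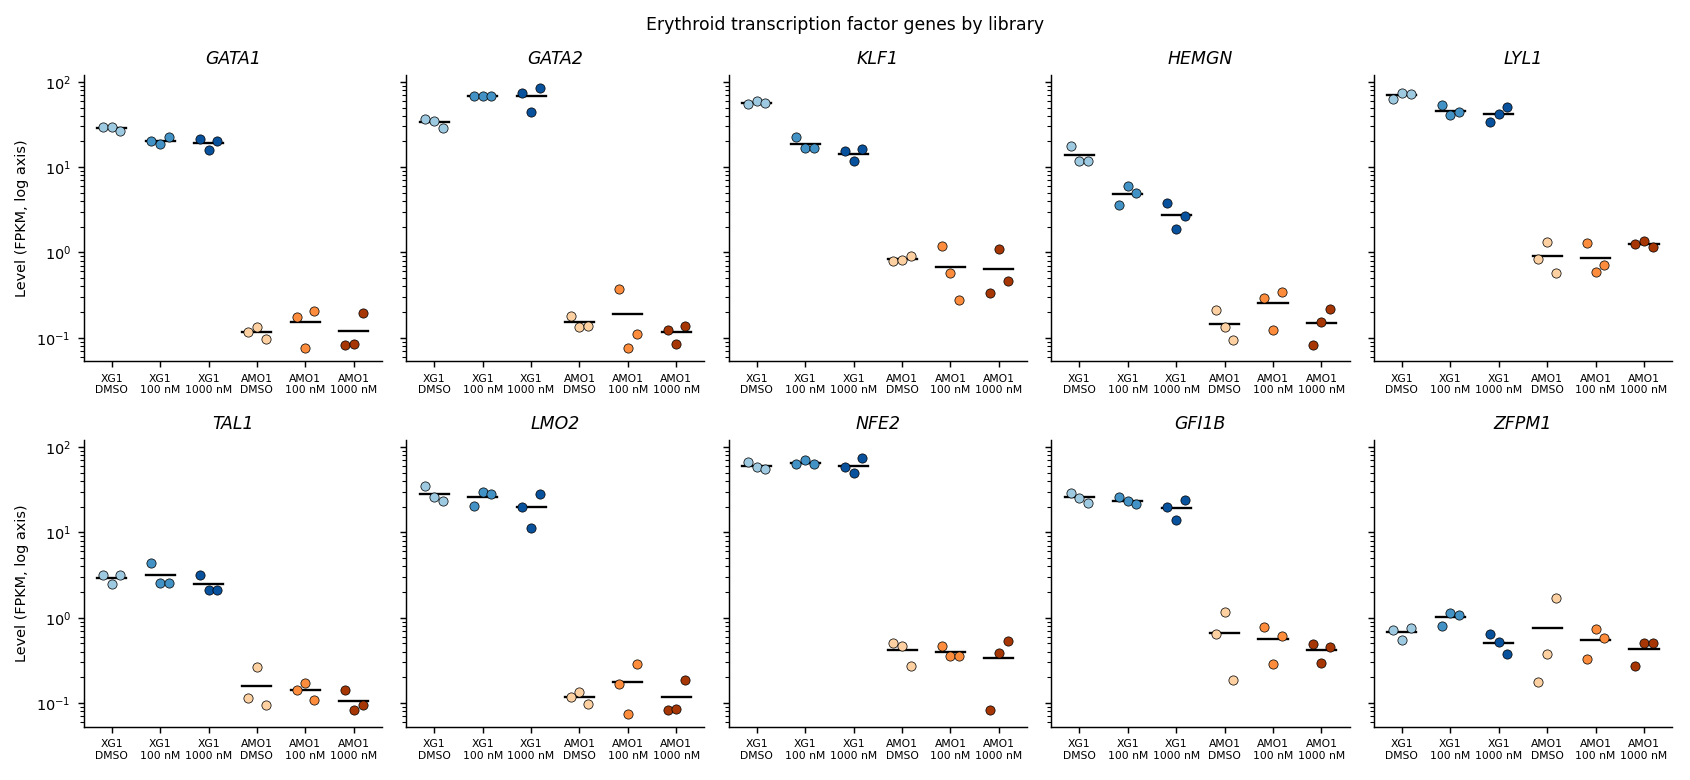
Level of each erythroid transcription factor gene in every library, in FPKM on a log axis, by line and dose. Points are libraries and bars are means of 3. The XG1 libraries lie above the AMO1 libraries for 9 of the 10 genes, ZFPM1 being the exception, and the genes were selected on this difference. Within the XG1 libraries GATA2 goes from 33.6 in DMSO to 68.1 FPKM at each dose, and KLF1 from 56.8 to 14.4 at 1000 nM.

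Some of the 10 factors also mark other blood lineages, so those markers were read beside them. CD34 and KIT, which define stem and progenitor cells, were between 0.0804 and 0.124 FPKM in the XG1 libraries, at the floor. Other genes of that list of 8 were present, with HHEX at 17.7 to 39.6 FPKM and MECOM at 2.02 to 5.46. Of the 8, 5 were under 1 FPKM in all 9 XG1 libraries. CPA3 of mast cells and MPO of granulocyte precursors were likewise between 0.0810 and 0.124. Of 14 megakaryocyte genes, 12 were under 1 FPKM in all 9 XG1 libraries, ITGA2B among them, while GP1BB, a platelet receptor subunit, was at 66.4 to 117. The myeloid genes CD33 (18.9 to 30.8 FPKM) and ITGAM (15.1 to 30.8) and the epithelial genes KRT18 (41.2 to 59.2) and EPCAM (17.9 to 49.0) were present. In these bulk samples fewer cells of a type and less RNA per cell cannot be told apart.

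GATA2 rose under YKL-5-124 in the XG1 libraries, to about the same level at both doses. Its 3 DMSO libraries were at 37.0, 35.1 and 28.7 FPKM, its 100 nM libraries at 68.6, 67.5 and 68.1, and its 1000 nM libraries at 74.2, 44.4 and 85.7. Every treated library lay above every DMSO library, and the 100 nM libraries lay close together. The log2 change, on the log2(FPKM + 1) scale used throughout, was 1.01 (SE 0.19, limma adjusted p = 0.00357) at 100 nM and 0.95 (SE 0.19, limma adjusted p = 0.00228) at 1000 nM. These are a 2.01-fold and a 1.94-fold rise. The SE is equal at both doses because the fit used the same spread for every group of 3 libraries. The AMO1 libraries, where GATA2 was at or close to the floor, take part in that spread. The SD of the XG1 libraries themselves was 0.519 FPKM at 100 nM and 21.3 at 1000 nM (n = 3 each). The 1000 nM library at 44.4 FPKM is replicate 2, which also had the lowest median level of all 9 XG1 libraries, 0.47 log2 under their median, with 9284 genes at 1 FPKM or more. Without it the GATA2 change at 1000 nM was 1.23 (limma adjusted p = 1.12e-04). A transcript named GATA2-AS1, antisense to GATA2 by its name, was at 1.63 ± 0.173, 1.80 ± 0.800 and 0.933 ± 0.860 FPKM in the XG1 groups in order of dose (n = 3 each). The strand setting of the counting is unknown, so reads of the pair could be shared.

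GATA1, which succeeds GATA2 as red cells mature, was lower in every treated XG1 library than in DMSO. It was at 29.9, 29.3 and 26.3 FPKM in DMSO, at 20.0, 18.7 and 22.3 at 100 nM and at 21.1, 15.9 and 20.4 at 1000 nM. Neither dose overlapped DMSO. The log2 change was -0.47 (SE 0.15) at 100 nM and missed the threshold (limma adjusted p = 0.0716), and at 1000 nM it fell by 0.56 (SE 0.15, limma adjusted p = 0.0159). The call at 1000 nM was lost once library medians were set equal (-0.30, limma adjusted p = 0.108), whereas that at 100 nM was gained (-0.46, limma adjusted p = 0.0197). It was also lost without DMSO replicate 1 (limma adjusted p = 0.0651), without DMSO replicate 2 (0.0609) and without 1000 nM replicate 2 (0.0722).

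The ratio of the 2 GATA factors within a library does not change when all its values are multiplied by the same factor. Quantile normalization is not a scaling of that kind. GATA2 divided by GATA1, in FPKM, was 1.24, 1.20 and 1.09 in the DMSO libraries. It was 3.42, 3.62 and 3.06 at 100 nM and 3.51, 2.79 and 4.20 at 1000 nM. Every treated library lay above every DMSO library, and the 2 doses overlapped. The ratio was chosen after the values were seen and is given without a test.

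**Figure D2:**
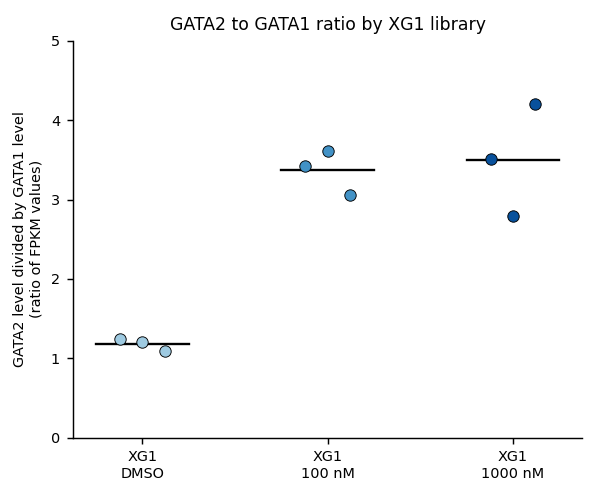
Ratio of the GATA2 level to the GATA1 level in each of the 9 XG1 libraries, both in FPKM, by dose. Points are libraries and bars are means of 3. The DMSO libraries lie between 1.09 and 1.24 and the treated libraries between 2.79 and 4.20.

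KLF1 and HEMGN, the genes of red cell maturation whose treatment values took part in the selection, had the largest differences from DMSO among the 10. KLF1, the activator of beta-globin, was at 54.8, 59.5 and 56.1 FPKM in DMSO. It was at 22.7, 16.9 and 16.6 FPKM at 100 nM and at 15.3, 11.7 and 16.2 at 1000 nM, so the 3 groups did not overlap. Its log2 difference from DMSO was -1.56 (SE 0.21) at 100 nM and -1.92 (SE 0.21) at 1000 nM, a level 0.264 times that of DMSO. HEMGN, known as hemogen, was at 17.9, 11.8 and 11.9 FPKM in DMSO, at 3.61, 6.06 and 4.96 at 100 nM and at 3.77, 1.87 and 2.67 at 1000 nM. Its treated libraries all lay below those of DMSO, while the 2 doses overlapped in part. Its log2 difference from DMSO was -1.34 (SE 0.20) at 100 nM and -1.99 (SE 0.20) at 1000 nM. Without 1000 nM replicate 2 the 1000 nM values were -1.78 for KLF1 and -1.81 for HEMGN.

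Of the TAL1 complex, LYL1 was called at 1000 nM in the XG1 libraries, and TAL1 and LMO2 were not. LYL1, the TAL1 relative, was at 63.2, 73.6 and 71.6 FPKM in DMSO, at 53.2, 40.9 and 43.9 at 100 nM and at 33.7, 42.0 and 51.4 at 1000 nM. Neither dose overlapped DMSO. The log2 change was -0.59 (SE 0.19, limma adjusted p = 0.0684) at 100 nM, short of the threshold, and LYL1 fell by 0.72 (SE 0.19, limma adjusted p = 0.0133) at 1000 nM. After median centring the 1000 nM value was -0.46 (limma adjusted p = 0.106). The call was also lost without DMSO replicate 2 (limma adjusted p = 0.0551) and without 1000 nM replicate 1 (0.0709).

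TAL1 itself was low and its groups overlapped, with 3.14, 2.51 and 3.20 FPKM in DMSO, 4.34, 2.58 and 2.54 at 100 nM and 3.21, 2.10 and 2.11 at 1000 nM. Its log2 differences of 0.05 (95% interval -0.32 to 0.42) and -0.20 (-0.56 to 0.17) did not pass the test. LMO2, which bridges TAL1 and the GATA factor, was at 34.9, 25.9 and 23.5 FPKM in DMSO, at 20.2, 29.8 and 27.9 at 100 nM and at 19.8, 11.3 and 28.3 at 1000 nM. Its 1000 nM libraries spread the widest of its 3 groups, and each dose overlapped DMSO. The LMO2 difference at 1000 nM was -0.55 (95% interval -1.05 to -0.05, limma adjusted p = 0.119) and -0.21 without replicate 2. Without 1000 nM replicate 3 it passed (-0.84, limma adjusted p = 0.0140).

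NFE2, GFI1B and ZFPM1 did not pass the test at either dose in the XG1 libraries. NFE2, the globin enhancer factor, was at 67.1, 59.3 and 55.4 FPKM in DMSO, at 63.2, 70.5 and 62.6 at 100 nM and at 57.9, 49.4 and 75.2 at 1000 nM. The groups overlapped, and the log2 differences were 0.11 (95% interval -0.25 to 0.47) and -0.01 (-0.37 to 0.35), so a 2-fold change lay outside both intervals. After median centring the 1000 nM value was 0.25, and without replicate 2 it was 0.13. GFI1B, a repressor that works through LSD1, was at 29.3, 25.4 and 22.4 FPKM in DMSO, at 25.9, 23.6 and 21.5 at 100 nM and at 20.1, 14.1 and 23.8 at 1000 nM. Its libraries overlapped across the doses, with log2 differences of -0.11 (95% interval -0.56 to 0.34) and -0.42 (-0.87 to 0.04), the second -0.22 without 1000 nM replicate 2. ZFPM1 was at 0.716, 0.553 and 0.764 FPKM in DMSO, at 0.801, 1.15 and 1.07 at 100 nM and at 0.641, 0.515 and 0.378 at 1000 nM. At these levels the pseudocount of 1 FPKM compresses any change, and the log2 differences were 0.26 and -0.15.

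The counts leave out KLF1 and HEMGN. Of the other 8 genes, 1 was called higher (GATA2) and 0 lower at 100 nM in the XG1 libraries, at a limma adjusted p under 0.05, and 3 had an unadjusted p under 0.05. Of all 12204 genes tested, 2.63% were called higher and 3.98% lower. The ranges of 4 of the 8 did not overlap DMSO, beside 27.4% of all genes. At 1000 nM 1 of the 8 was called higher (GATA2) and 2 lower (LYL1 and GATA1), beside 1.9% higher and 15.7% lower over all genes. The ranges of 3 of the 8 did not overlap DMSO, beside 32.2% of all genes. With 15.7% of all genes called lower, 2 of 8 is a share near the background. The median change of all genes at 1000 nM was -0.19, and that of the 8 genes was -0.31. Median centring turned the calls over all genes at 1000 nM from 232 higher and 1920 lower to 969 of each, and of the 8 genes it left GATA2 called. Centring also removes any fall shared by most genes. The 44 spike-in control RNAs were nearly level in the values as given, with library deviations of -0.08 to 0.07 log2. The median log2 level of the tested genes ran from 2.21 to 2.88 over the XG1 libraries. Which scale is closer to the RNA content of the cells was not tested. Without 1000 nM replicate 2, GATA2 and LYL1 were called (limma adjusted p = 1.12e-04 and 0.0376). The 2 dose comparisons share their DMSO libraries.

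The 2 doses were also compared with each other. None of the 10 genes was called between 1000 and 100 nM in the XG1 libraries, beside 0.139% of all genes, and 1 (HEMGN) had an unadjusted limma p under 0.05. The differences ran from -0.65 (HEMGN) to -0.05 (GATA2), while the median of all genes was -0.18. For GATA2 the 95% interval of the difference was -0.46 to 0.35.

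**Figure D3:**
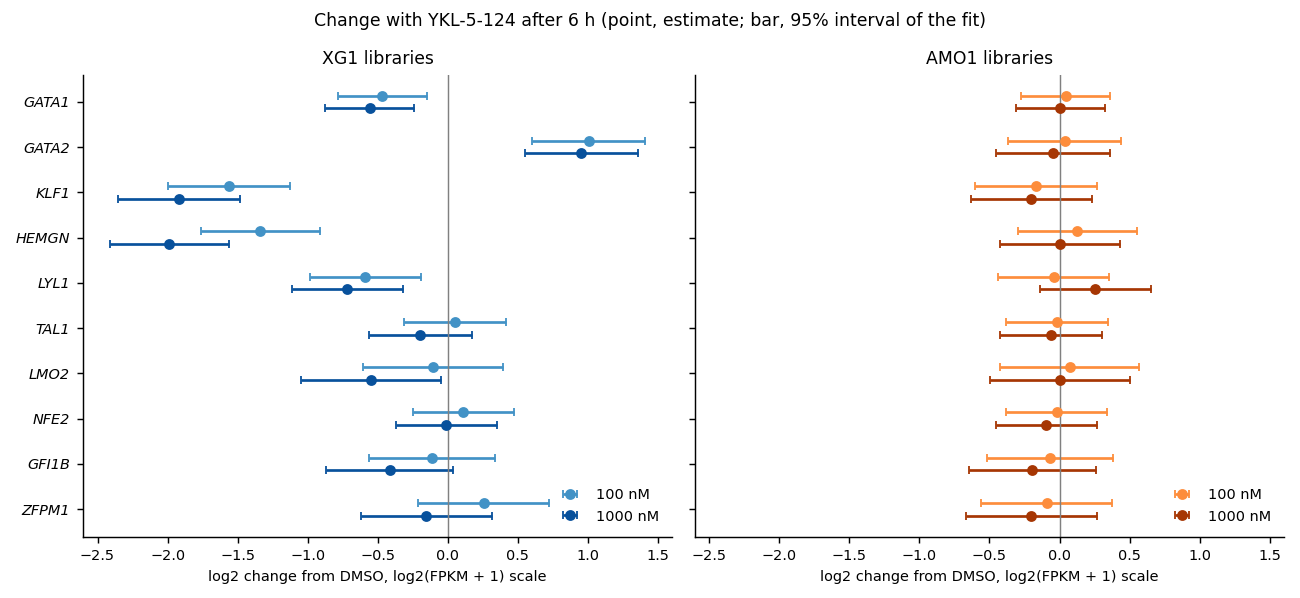
Log2 change of the 10 genes at 100 and 1000 nM against DMSO in the XG1 libraries (left) and AMO1 libraries (right), on the log2(FPKM + 1) scale. Points are estimates of the limma fit and bars their 95% intervals. In the XG1 libraries GATA2 lies to the right of 0 at both doses, KLF1, HEMGN, LYL1 and GATA1 to the left, and the AMO1 estimates stay between -0.20 and 0.25.

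In the AMO1 libraries, where the genes were low, none of the 10 was called at either dose or between the doses by limma, and none had an unadjusted p under 0.05. Over all genes 0.434% were called higher and 1.76% lower at 100 nM, 1.78% higher and 15.4% lower at 1000 nM, and 0.18% between the doses. Median centring turned the calls over all genes from 53 higher and 215 lower to 289 and 188 at 100 nM, and from 217 and 1874 to 1012 and 815 at 1000 nM. The log2 differences from DMSO ran from -0.17 to 0.13 at 100 nM and from -0.20 to 0.25 at 1000 nM. Only 1 of the 10 reached a mean of 1 FPKM in any AMO1 group, and the others were tested through their XG1 levels. A gene at the floor, as GATA1 and GATA2 were, could not be seen to fall. The lack of calls therefore does not show that these genes were unresponsive in AMO1.

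The difference between the lines' responses was fitted for every gene. For HEMGN it was -1.47 at 100 nM and -1.99 at 1000 nM, and for KLF1 -1.39 and -1.72, values that took part in the selection. None of the other 8 was called by limma at either dose, beside 0.156% of all genes at 100 nM and 0.68% at 1000 nM, although 2 of the 8 and 3 of the 8 had an unadjusted p under 0.05. For GATA2 the difference was 0.97 (SE 0.27, limma adjusted p = 0.194) at 100 nM and 1.00 (SE 0.27, limma adjusted p = 0.101) at 1000 nM. For GATA1 at 1000 nM it was -0.56 (limma adjusted p = 0.323), and for LYL1 -0.97 (limma adjusted p = 0.102). The GATA2 difference at 1000 nM passed under 4 of 21 alternative settings, among them median centring (0.97, limma adjusted p = 0.0161) and without 1000 nM replicate 2 of XG1 (1.28, limma adjusted p = 0.00684). With GATA2 at the floor in AMO1, this difference is close to the XG1 change itself and adds little to it. HEMGN and KLF1 were low in AMO1 too, so the same holds for their differences.

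The proteins that work with these factors were read from lists of their complexes. At 100 nM in the XG1 libraries none of 12 tested partners of the TAL1, LMO2 and LDB1 complex was called and none of 13 members of NuRD, the histone deacetylase complex that ZFPM1 recruits. Of 9 genes listed for the LSD1 and CoREST complex used by GFI1B, the GFI1B relative GFI1 among them, RCOR2 rose (0.64, SE 0.19). Of 8 dimer partners and relatives of NFE2, the small MAF genes MAFG (0.67, SE 0.18, from 22.9 ± 4.05 to 36.8 ± 1.31 FPKM) and MAFF (0.75, SE 0.20, from 1.58 ± 0.873 to 3.18 ± 0.499 FPKM) rose. Of all genes 2.63% were called higher and 3.98% lower at this dose, so 0 of 12 and 0 of 13 are near the background. The list medians were -0.09, -0.18, 0.10 and 0.28 in that order, beside -0.01 for all genes. The calls of RCOR2, MAFG and MAFF were lost under 10 of 15, 8 of 16 and 8 of 16 alternative settings.

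At 1000 nM the calls among the TAL1 complex partners (4 of 12), the NuRD members (3 of 13) and the NFE2 relatives (1 of 8) were all lower. The medians of these lists were -0.46, -0.35 and 0.06, beside -0.19 for all genes, of which 15.7% were called lower. Among the partners SSBP2, an LDB1 stabiliser, fell by 0.72 (SE 0.17), LMO4 by 0.61 (SE 0.17) and the E protein gene TCF3 by 0.55 (SE 0.15, from 36.3 ± 0.999 to 24.5 ± 2.64 FPKM). In NuRD MTA3 (-0.83, SE 0.24), MBD2 (-0.79, SE 0.17) and MBD3 (-0.59, SE 0.20) fell, and among the NFE2 relatives NFE2L2 fell (-0.46, SE 0.15). These calls were lost under 2 (SSBP2), 7 (LMO4), 4 (TCF3), 8 (MTA3), 9 (MBD3) and 12 (NFE2L2) of 16 alternative settings. After median centring 0 of the 12 partners remained lower and 1 was higher, with 1 of the 13 NuRD members lower and 1 higher, and 2 of the 8 NFE2 relatives higher. MBD2 stayed called after centring (limma adjusted p = 0.0186). Over all 12204 genes centring left 969 called in each direction.

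Among 25 other tested regulators of globin genes and red cells, MYB stood out by its call at both doses. MYB, which keeps progenitors dividing, was at 81.6 ± 2.24 FPKM in the XG1 DMSO libraries, 39.4 ± 5.01 at 100 nM and 38.5 ± 5.61 at 1000 nM (n = 3 each). It fell by 1.04 (SE 0.19, limma adjusted p = 0.00229) and by 1.07 (SE 0.19, limma adjusted p = 7.84e-04). MYB was the 1 gene of the 25 called at 100 nM, a share near the 3.98% of all genes called lower. At 1000 nM 7 of the 25 were called, all lower, beside 15.7% of all genes, including the Ikaros gene IKZF1 (-0.84, SE 0.19) and the inhibitor of E proteins ID2 (-0.81, SE 0.26), whose level was 0.526 ± 0.373 FPKM. The ID2 call was lost under 10 of 16 alternative settings, and its value was -0.49 without DMSO replicate 1. After centring 5 of the 25 were called lower at each dose, with 1 higher at 1000 nM. Over all 12204 genes centring gave 611 higher and 888 lower at 100 nM, and 969 of each at 1000 nM. MYB was measurable in AMO1 as well, where it fell by 1.05 (SE 0.19, limma adjusted p = 0.00475) at 100 nM and at 1000 nM (-1.56, SE 0.19, limma adjusted p = 2.38e-05). The globin silencer BCL11A fell there too, by 0.96 (SE 0.17) and 1.11 (SE 0.17), from 3.53 ± 0.263 FPKM in DMSO.

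The target genes of the network were read last. Of 44 tested target genes none was called by limma at 100 nM in the XG1 libraries, beside 2.63% of all genes called higher and 3.98% lower. The list's median was -0.02, beside -0.01 for all genes. After centring 1 of the 44 was called higher, beside 611 higher and 888 lower of all 12204 genes. At 1000 nM 6 of the 44 were called, all lower, a share near the 15.7% of all genes, with a median of -0.23 beside -0.19 for all genes. Among the called targets the largest falls were in CPOX, PIM1 and RHAG. CPOX, a heme synthesis enzyme, fell by 0.96 (SE 0.20, from 15.1 ± 4.53 to 7.17 ± 1.67 FPKM). The kinase gene PIM1 fell by 0.90 (SE 0.24, from 385 ± 80.0 to 207 ± 56.3 FPKM). RHAG, an Rh complex protein of the red cell membrane, fell by 0.62 (SE 0.19). The calls of PIM1 and RHAG were lost under 3 and 9 of 16 alternative settings. After centring CPOX stayed called (limma adjusted p = 0.0112), PIM1 and RHAG did not (0.0652 and 0.143), and 1 target was lower and 2 were higher. Of all 12204 genes 969 were then called in each direction. In AMO1 4 of the 44 fell at 1000 nM, CPOX again the farthest (-1.11, SE 0.20). Other AMO1 calls at 1000 nM, all lower, were 5 of the 12 TAL1 complex partners, among them the E protein gene TCF4 (-1.14, SE 0.15) and SSBP4 (-0.85, SE 0.18), 1 of 13 NuRD members, 2 of 8 NFE2 relatives and 8 of 25 other regulators, beside 15.4% of all genes. After centring the AMO1 counts were 2 lower among the partners and 0 in NuRD, with 2 lower and 1 higher among the NFE2 relatives, 7 lower and 1 higher among the other regulators, and 1 lower and 3 higher among the targets. Over all 12204 genes they were 815 lower and 1012 higher.

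**Figure D4:**
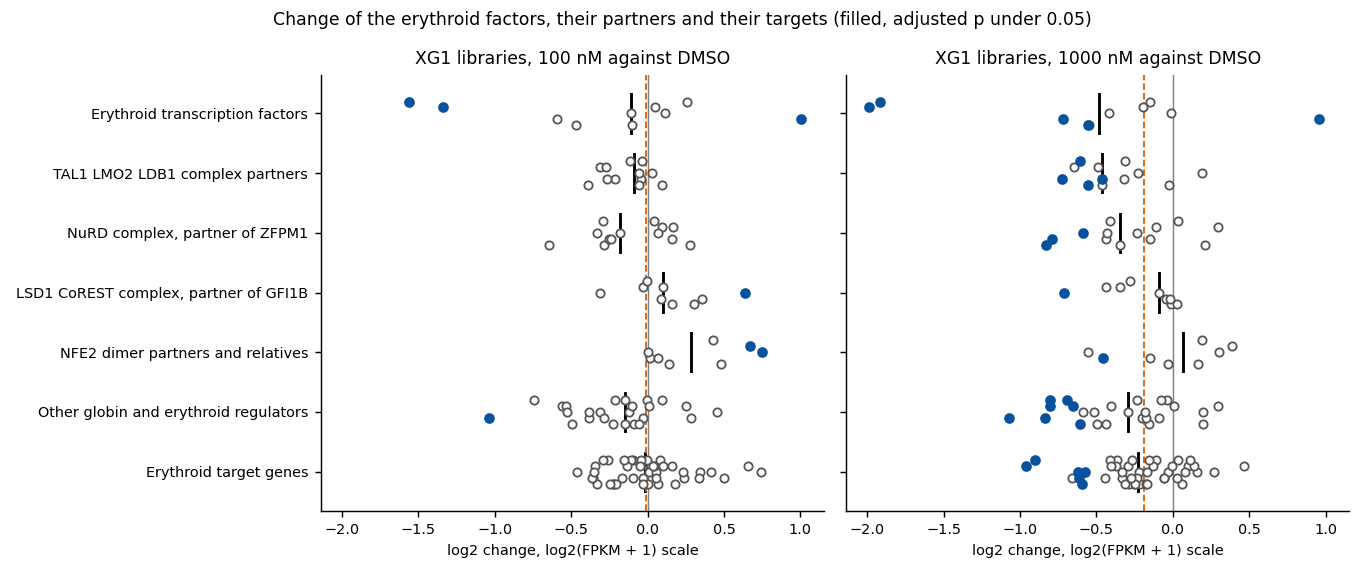
Log2 change of the 10 erythroid factors, of 4 lists of partner proteins, of other regulators and of target genes at 100 nM (left) and 1000 nM (right) against DMSO in the XG1 libraries. Points are genes, filled where the limma adjusted p is under 0.05, black bars are list medians, and the dashed line is the median of all genes (-0.01 and -0.19). GATA2 lies apart on the right at both doses, and KLF1 and HEMGN on the left.

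Sums of markers of other cells were read beside these values in the XG1 libraries. The summed level of 8 stem and progenitor genes was 24.7 to 27.7 FPKM in DMSO, 35.4 to 43.4 at 100 nM and 27.9 to 44.3 at 1000 nM, above DMSO in each treated library. HHEX made up most of it and rose with GATA2, by 0.72 (SE 0.21, limma adjusted p = 0.0465) and 0.66 (SE 0.21, limma adjusted p = 0.0380), while MECOM fell by 0.54 (SE 0.16) at 1000 nM. CD34 and KIT stayed at the floor in all 3 groups. The plasma cell sum was 72.1 to 75.9 FPKM in DMSO, 45.4 to 66.4 at 100 nM and 44.4 to 55.2 at 1000 nM. XBP1, a plasma cell factor, had the highest level of that list (mean 40.6 FPKM over the XG1 libraries). It fell by 0.77 (SE 0.17) at 1000 nM and was the 1 gene of the 10 called there. The median change of the 10 was 0.08, beside -0.19 for all genes. Of the 10, 5 were under 1 FPKM in all 9 XG1 libraries, where the pseudocount compresses any change. This median therefore cannot show whether the list followed XBP1. The myeloid sum was 63.2 to 74.4, 62.0 to 65.1 and 49.3 to 60.8 FPKM. LYZ fell by 0.78 (SE 0.19) at 1000 nM, the 1 called of 4 tested myeloid genes, beside 15.7% of all genes called lower. The stromal and epithelial sum was 96.1 to 105 FPKM in DMSO, 99.6 to 110 at 100 nM and 79.4 to 92.5 at 1000 nM, below DMSO. At 1000 nM 0 of its 3 tested genes were called, with a median of -0.15, near that of all genes. The megakaryocyte sums overlapped between the groups. The part of these markers in the changes of the erythroid factors was not tested.

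The likeness of other genes to the called factors was taken over the 9 XG1 libraries, among 6489 genes averaging 5 FPKM or more, by Pearson's r of the log2 values. The 2 nearest genes were LETMD1 (0.98) and HES1 (0.97) for GATA1, SLC35B3 (0.96) and FAM53C (0.96) for GATA2, and NOL11 (1.00) and INO80C (0.99) for KLF1. They were PPP1R8 (0.99) and CSNK2A1 (0.99) for HEMGN and NGDN (0.98) and UBXN6 (0.97) for LYL1. None of the nearest genes was another of the 10 factors. Between the factors r was 0.92 for GATA1 with KLF1 and -0.79 for GATA2 with KLF1. The libraries share 3 doses, and the values describe these 9 libraries only.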

How the data were processed

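RNA of 18 libraries was read with the QuantSeq method, which samples transcript 3′ ends, per the labels' protocols, and the labels gave the groups and replicate numbers. HISAT2, Cuffnorm and build hg19 were used by the authors, per the submitters' processing notes. Software versions, gene annotation and strand setting are unknown here. The deposited values were taken as FPKM from the name Cuffnorm, since the file headers say only that they are expression. They are not counts, so no count test was run. Each library held between 9284 and 10571 genes above or at 1 FPKM, and all libraries differed. The 12204 genes whose mean reached 1 FPKM in any group were tested with limma 3.58.1 (R 4.3.3, statmod 1.5.0; trend and robust options, two-sided) on log2(FPKM + 1), with 1 mean per group over all 18 libraries, Benjamini-Hochberg adjustment over all genes tested and a threshold of 0.05. All 10 factors passed the filter on low values, but only 1 of them through an AMO1 group. The script was tested on simulated data. The factors and the lists of partners, targets and markers were chosen with earlier results of these data known. Named were all 10 factors, up to 3 called genes per list, direction and XG1 dose (2 in AMO1), the 3 highest markers per line and the 2 genes most like each called factor. GATA2-AS1 and the markers CD34, KIT, CPA3, MPO and ITGA2B were named outside that rule. A result for 1 gene that the rule names is not reported here. Alternatives were pseudocounts of 0.1 and 5, a minimum mean of 5 FPKM, no filter, median centring, quantile normalization, scaling to 44 spike-in RNAs, a replicate block, fits of fewer groups, and leaving out each library.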

Additional observations from a re-analysis of the deposited data

Results flagged for a closer look

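The change with YKL-5-124 in the XG1 libraries minus that in the AMO1 libraries was -1.47 on the log2 scale for HEMGN at 100 nM. At 1000 nM it was -1.99 for HEMGN and -1.72 for KLF1. These values took part in choosing the genes, so they are given as values only, with no test to lean on. The HEMGN value at 100 nM lost its side of the limma threshold under 16 of 21 alternative settings. In the AMO1 libraries HEMGN ran from 0.0820 to 0.346 FPKM and KLF1 from 0.280 to 1.18. At such levels a fall could hardly be seen, so these values are close to the XG1 changes themselves and add little to them.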

How the results depend on the processing

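The counts over all 10 factors include KLF1 and HEMGN, whose values took part in the selection. In the main fit the response difference was called for no factor other than these, so its counts are no support. Of the 10, 3 were called at 100 nM in the XG1 libraries, beside 807 of all 12204 genes. With a pseudocount of 5 it was 5, beside 906 of all genes. At 1000 nM 5 were called, beside 2152 of all genes. It was 3 with a pseudocount of 0.1, with median centring and with quantile normalization, and 3 to 6 when 1 library was left out. The response difference at 100 nM was called for 1 factor, beside 19 of all genes. It was called for 0 with a pseudocount of 0.1, a minimum mean of 5 FPKM, no filter, spike-in scaling, the replicate block or only the groups compared, for 2 with a pseudocount of 5 or median centring, for 3 with quantile normalization, and for 0 to 1 when 1 library was left out. At 1000 nM it was called for 2 factors, beside 83 of all genes, for 0 with a pseudocount of 0.1 and for 4 with a pseudocount of 5. No factor was called between the doses or in AMO1 under any setting run.

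GATA2 at 1000 nM kept its call under all 16 alternatives. The log2 difference of KLF1 ran from -1.70 to -1.39 at 100 nM and from -2.01 to -1.66 at 1000 nM, and that of HEMGN from -1.49 to -0.93 and from -2.31 to -1.27, as description. GATA2 at 100 nM lost it with a pseudocount of 0.1 (limma adjusted p = 0.0579). GATA1 at 1000 nM lost its call under 8 of 16 and LYL1 under 5 of 16. GATA1 at 100 nM was called with a pseudocount of 5, median centring and quantile normalization, and LYL1 at 100 nM with a pseudocount of 5 and with only the groups compared. Differences that changed sign were all small and not called: TAL1 at 100 nM (-0.14 to 0.15 over all alternatives), GFI1B at 100 nM (0.0292 with quantile normalization) and LMO2 at 100 nM (0.0219 with quantile normalization, -0.22 to 0.0586 when 1 library was left out). At 1000 nM they were TAL1 (0.0622 with median centring, 0.0123 with quantile normalization), ZFPM1 (0.11 with median centring) and NFE2 (0.25 with median centring, 0.32 with quantile normalization, 0.0021 with spike-in scaling, -0.17 to 0.13 without 1 library). The cause of these shifts was not tested, and the unknown depth limits what the low values of TAL1, ZFPM1 and the AMO1 libraries can show.

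Over all genes, 807 were called at 100 nM in the XG1 libraries (396 to 613 without 1 library, 486 to 1878 otherwise) and 2152 at 1000 nM (1108 to 2561, and 1197 to 2383). In AMO1 268 were called at 100 nM (100 to 942, and 6 to 477) and 2091 at 1000 nM (1187 to 3031, and 1454 to 2211). Between the doses 17 were called in XG1 (1 to 310, and 0 to 60) and 22 in AMO1 (2 to 17, and 2 to 37), and for the response difference 19 at 100 nM (3 to 35, and 1 to 76) and 83 at 1000 nM (42 to 165, and 27 to 216). Replicate numbers gave no pairing: deviations of same-numbered libraries correlated at -0.12 to 0.09, and 4 of 18 libraries correlated best with their own number. With the replicate block 3 and 4 factors were called at the 2 doses in the XG1 libraries, and 486 and 1512 genes in all, GATA1 at 1000 nM being the factor lost (limma adjusted p = 0.0502).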
